A study of Mus musculus with 6 samples.

Results

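The canonical Notch pathway ends in the nucleus, and 10 genes of that step and of its modulation were examined in the embryonic cardiac outflow tract (OFT). They were chosen by name, with earlier results of these data known, and found by matching their Ensembl identifiers, 10 of the 28777 genes listed in the deposited counts. They are the repressors *Hes1*, *Hey1*, *Hey2* and *Heyl*, the nuclear complex genes *Rbpj* and *Maml1*, the feedback inhibitor *Nrarp*, and the Fringe genes *Lfng*, *Mfng* and *Rfng*. All 10 passed the filter of more than 5 reads over all libraries, as did 28157 genes in total.

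Binding of a ligand on a neighbouring cell leads to cleavage of the Notch receptor, and the freed intracellular domain enters the nucleus. There it joins the DNA-binding protein Rbpj and a Mastermind coactivator such as Maml1, and the complex turns on genes that include the Hes and Hey repressors. Fringe enzymes act earlier, by adding sugar to the receptor and so changing its response to different ligands, and in the heart the pathway is known for its part in endocardial cushion, valve and OFT formation.

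The bulk RNA-Seq data comprised 6 libraries of mouse OFT at E13.5, each a pool of 3 OFTs (18 in all) cut at their base below the conal cushions. The 3 libraries labelled mutant carry the genotype label Notch1-het; Nos3- null, which stands for germline disruption of 1 copy of *Notch1* and both copies of *Nos3*, and the other 3 are labelled wildtype, from littermates. Both groups are on a C57/BL6J background, and the study made separate pools for each library, genotyped from the rest of the embryo. Libraries were stranded total RNA depleted of ribosomal RNA, and counts per library ranged from 34729103 to 44387490. The values below are CPM, read counts relative to library size after TMM scaling, and a positive log2 fold change means a higher level under the mutant label.

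The targeted genes were read first, as a check of the labels. *Notch1* had 74.3, 88.2 and 83.6 CPM in wildtype-label replicates 1, 2 and 3, and 155, 161 and 139 CPM in mutant-label replicates 1, 2 and 3. It rose under the mutant label by 0.89 on the log2 scale (SE 0.10), with an adjusted p of 0.0313 in edgeR's quasi-likelihood test (Benjamini-Hochberg adjusted), which ranged up to 0.339 over the other settings. DESeq2's Wald test gave an adjusted p of 6.25e-11, and 11 of 18 other settings called it. Over all settings its log2 fold change stayed between 0.67 and 0.99. It was called without wildtype replicate 1, in a fit that called 9.45% of all genes. It was not called when any other library was left out, in fits that called 1 to 3 genes in all. The label stands for disruption of 1 copy, and counts over the whole gene do not separate the copies. Why the level was higher was not tested, and groups are called by their labels throughout. *Nos3* had 42.4 ± 9.18 CPM (SD, n = 3) under the wildtype label and 21.5 ± 0.949 CPM (SD, n = 3) under the mutant label. Its log2 fold change was −0.98, with an adjusted p of 0.128 by edgeR's quasi-likelihood test (Benjamini-Hochberg adjusted) and 9.14e-06 by DESeq2's Wald test, and 6 of 18 other settings called it.

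Markers of the cells that an OFT holds were present in all libraries. *Tnnt2*, cardiac troponin T, lay between 3514 and 6451 CPM, the endothelial adhesion gene *Pecam1* between 193 and 254 CPM, and the mesenchymal matrix gene *Postn* between 871 and 1917 CPM. Of 8 vascular smooth muscle (VSMC) markers, *Acta2* was at 1054 CPM or more and *Cnn1* at 256 CPM or more in every library. In contrast, *Tagln* was at 3.04 CPM or less and *Myh11* at 5.15 CPM or less in every library, for a reason that was not tested. Cell type markers also differed between the labels. All 14 Myocardial markers were lower under the mutant label and all 10 Mesenchymal markers higher, with median log2 fold changes of −0.52 and 0.59. Of them, 12 and 8 had an unadjusted p under 0.05 by edgeR, where 16.1% of all genes tested did. EdgeR called 0, where it called 0.0213% of all genes. DESeq2's Wald test, which called 2.66% of all genes, called *Tnnt2* (adjusted p = 0.0382), *Myh7*, *Tnni1*, *Tnni3*, *Myl3* and *Myl4* of the Myocardial markers. Of the Mesenchymal markers it called only *Col1a1* (0.0253), and not others such as *Postn* (0.102). The 12 Endothelial markers were divided, 4 higher and 8 lower, with a median of −0.033. So were the 8 VSMC markers, 5 higher and 3 lower, with a median of 0.16.

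Across the 10 genes, 8 had a positive and 2 a negative log2 fold change, and none passed the test over all genes. By edgeR's quasi-likelihood test (Benjamini-Hochberg adjusted) 0 of 10 were called, where 0.0213% of all genes tested were. At an unadjusted p under 0.05 there were 5, namely *Hey2* lower and *Heyl*, *Maml1*, *Mfng* and *Rfng* higher, where 16.1% of all genes tested passed. DESeq2's Wald test called 1, *Hey2*, where 2.66% of all genes were called, 1.2% lower and 1.46% higher. The limma-voom fit called 0, where 0.0178% of all genes were called. The 3 values of each label did not overlap for 3 genes, *Hey2* lower and *Maml1* and *Rfng* higher, where 19.6% of all genes tested did not overlap. Leaving out wildtype replicate 1 made that count 5, where 42.7% of all genes did not overlap, and leaving out mutant replicate 3 made it 6, where 37.4% did not. The median log2 fold change of the 10 was 0.21, beside 0.011 for all genes tested and −0.030 for genes averaging at least 1 CPM. It was 0.14 without mutant replicate 2, 0.32 when libraries were scaled by their size alone, 0.095 after correcting for GC and gene length, and 0.044 in the fit with the Myocardial covariate.

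**Figure D1:**
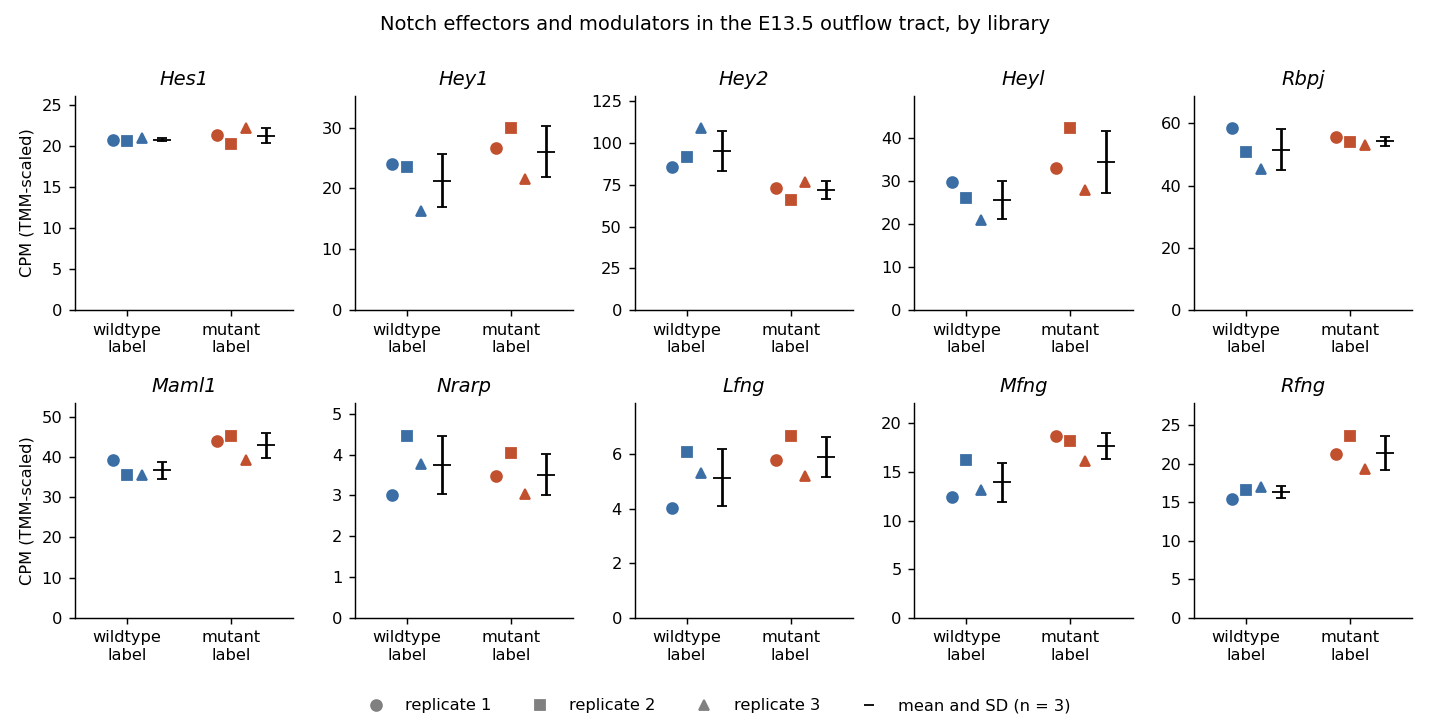
CPM (TMM-scaled, axes from 0) of each of the 10 genes in the 6 libraries, by label, with a marker shape for each replicate and the mean and SD (n = 3) beside the points. *Hey2* lies lower in all 3 mutant-label libraries, *Maml1* and *Rfng* lie higher in all 3, and the groups overlap for the other 7 genes.

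Levels were compared between genes per length, as CPM per kb of exon averaged over the 6 libraries. Length was that of all annotated exons of a gene merged, and at 12.75 kb it was longest for *Rbpj*, whose level per kb depends on this choice. *Hey2* was first at 18.2 CPM per kb, above 87.2% of 17138 protein coding genes, and *Hes1* was next at 10.3 CPM per kb. *Rfng* (7.56 CPM per kb), *Hey1* (7.25), *Maml1* (7.20), *Heyl* (5.89), *Mfng* (5.57) and *Rbpj* (4.15) followed, and the ranges over libraries of each neighbouring pair in this run overlapped. *Lfng* (2.20 CPM per kb) and *Nrarp* (1.40) came last and were the only ones of the 10 below the protein coding median of 3.32 CPM per kb. The ranges of neighbours were separate at 3 places, between *Hey2* and *Hes1*, between *Hes1* and *Rfng*, and between *Rbpj* and *Lfng*.

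The Hes and Hey genes encode basic helix-loop-helix repressors. Hes proteins end in a short motif that recruits corepressors of the Groucho/TLE family, and Hey proteins carry a variant of it or lack it. The ends of their coding sequences, from GENCODE transcripts of mm10, show how *Hes1*, *Hey2* and *Heyl* differ at this motif. Capitals mark the 4 codons of the motif or of its variant, and each line runs to the stop codon.

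Hes1: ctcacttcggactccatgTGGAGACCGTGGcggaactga
Hey2: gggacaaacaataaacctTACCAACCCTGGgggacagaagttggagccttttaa
Heyl: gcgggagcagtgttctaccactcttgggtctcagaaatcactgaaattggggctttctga

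In *Hes1* the 4 codons stood 2 codons before the stop, in *Hey2* 7 codons before it, and in *Heyl* no match of the searched codons was found. The search was for tryptophan or tyrosine, then arginine or glutamine, then proline and tryptophan. A more divergent form, in *Heyl* or elsewhere, was not searched for. Over the aligned coding sequence, *Hey1* and *Hey2* were 69.3% identical, *Hey2* and *Heyl* 67.2%, and *Hey1* and *Heyl* 65.9%, while *Hes1* was 61.7% to 63.9% identical to the Hey genes. No stretch of 50 bases, the read length before trimming, was shared between any 2 of the 4 genes' transcripts. Full-length reads from one thus do not match another exactly, and shorter stretches, such as those of trimmed reads, were not searched.

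*Hey2* (ENSMUSG00000019789, mm10 chromosome 10 from 30832359 to 30842801, minus strand) is best known in the heart as a repressor in the compact ventricular myocardium and in vessels. It had 85.5, 91.3 and 109 CPM in wildtype-label replicates 1, 2 and 3. In mutant-label replicates 1, 2 and 3 it had 72.8, 65.7 and 76.8 CPM. Every mutant-label library lay below every wildtype-label library. Its means were 95.2 ± 12.1 and 71.8 ± 5.59 CPM (SD, n = 3 each), a log2 fold change of −0.41 (SE 0.11, 95% interval −0.66 to −0.16). The adjusted p was 0.194 in edgeR's quasi-likelihood test (Benjamini-Hochberg) and 0.0451 from DESeq2's Wald test. An exact two-sided permutation test gave p = 0.1, the smallest that 3 against 3 libraries allow. Over 18 other settings the log2 fold change stayed between −0.48 and −0.18 and 5 settings called it, with adjusted p from 0.00891 to 0.915. One of the 5 leaves out wildtype replicate 1 (log2 fold change −0.48, adjusted p = 0.0273 by edgeR's quasi-likelihood test), and 9.45% of all genes were called in that fit.

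The library order of *Hey2* was that of the summed Myocardial markers. From high to low both ran wildtype replicates 3, 2 and 1, then mutant replicates 3, 1 and 2, and the marker sums were 49417, 37325, 32509, 32178, 26838 and 22231 CPM. As a log2 ratio to that sum, *Hey2* was −8.69 ± 0.13 under the wildtype label and −8.55 ± 0.16 under the mutant label (SD, n = 3 each), and the groups overlapped. As a log2 ratio to the summed Endothelial markers it was −3.93 ± 0.13 and −4.30 ± 0.061, without overlap. With the Myocardial list's mean as a covariate the log2 fold change was −0.18 (adjusted p = 0.915), and with that of the Endothelial list it was −0.41 (adjusted p = 0.0118), both from edgeR's quasi-likelihood test. Those fits called 0.0142% and 8.73% of all genes. The Myocardial sum did not overlap between the labels, so the first of these fits cannot well separate the label from the Myocardial markers. In bulk tissue, fewer cells of a type and less RNA per cell cannot be told apart.

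RefSeq promoters, 250 bases before to 50 after a start, were at hand in the GRCm38.p6 build for 6 of the 10 genes (*Hey2*, *Lfng*, *Nrarp*, *Rbpj*, *Maml1* and *Rfng*). They were searched on both strands for TGGGAA, the core recognised by Rbpj, and for GTGGGAA, which contains it. Among all 32851 promoters, 25.6% held TGGGAA and 6.38% held GTGGGAA. The *Hey2* promoter held GTGGGAA at 2 places, at position −207 from its start on the reverse strand and at −4 on the forward strand, and 0.256% of all promoters held at least 2. The *Lfng* promoter held TGGGAA at 2 places, of which 1 was GTGGGAA, and 3.79% of all promoters held at least 2. Windows of 30 bases around them are shown because these are the genes' own matches to the pathway's DNA-binding protein, with the core in capitals, read along each gene's strand.

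Hey2 (chr10:30842973-30843002, minus strand): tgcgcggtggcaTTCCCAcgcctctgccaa
Hey2 (chr10:30842769-30842798, minus strand): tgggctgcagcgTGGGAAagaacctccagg
Lfng (chr5:140607194-140607223, plus strand): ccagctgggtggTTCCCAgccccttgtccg
Lfng (chr5:140607221-140607250, plus strand): ccgtatcccacgTGGGAAggagagatctcc

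The *Hey2* window nearest the start lies inside the first exon of the GENCODE gene model. In the second *Lfng* window the core overlaps CACGTG, an E box of the kind that basic helix-loop-helix proteins bind, which 7.15% of all promoters held. The *Nrarp* promoter also held CACGTG. The *Rbpj* gene has 2 listed promoters, whose windows overlap. The first held TGGGAA at 2 places, −149 and −65, and 3.79% of all promoters held at least 2. The match of the second, at −205, is the same site as that at −65 of the first. The *Rbpj* windows are not shown. The *Nrarp*, *Maml1* and *Rfng* promoters held no TGGGAA. These are matches of letters, and no binding was measured.

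*Heyl* (ENSMUSG00000032744, chromosome 4 from 123233556 to 123249875, plus strand), a Hey gene known from vascular smooth muscle, had 29.9, 26.1 and 21.1 CPM in wildtype-label replicates 1, 2 and 3 and 33.1, 42.4 and 28.1 CPM in mutant-label replicates 1, 2 and 3. The groups overlapped, since mutant replicate 3 lay below wildtype replicate 1. Its log2 fold change was 0.42 (SE 0.16, 95% interval 0.061 to 0.79), with an adjusted p of 0.262 by edgeR's quasi-likelihood test (Benjamini-Hochberg adjusted). Over the 18 settings the adjusted p ranged from 0.0381 to 1, and 2 settings called it. Without mutant replicate 2 the log2 fold change was 0.25.

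*Hey1* (ENSMUSG00000040289, chromosome 3 from 8663359 to 8667256, minus strand), a Hey gene of endocardium and atrial muscle, had 24.0, 23.5 and 16.4 CPM under the wildtype label and 26.7, 29.9 and 21.6 CPM under the mutant label, for replicates 1 to 3. Wildtype replicate 3 was lowest and mutant replicate 2 highest, as for *Heyl*. The log2 fold change was 0.29 (SE 0.16, 95% interval −0.075 to 0.65), with an adjusted p of 0.408 by edgeR's quasi-likelihood test (Benjamini-Hochberg adjusted). Leaving out wildtype replicate 3 gave 0.13, and leaving out mutant replicate 2 gave 0.18.

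*Heyl* had the library order of the summed Mesenchymal markers, which from high to low were 11361, 10378, 9384, 8780, 6551 and 4846 CPM in mutant replicates 2 and 1, wildtype replicate 1, mutant replicate 3 and wildtype replicates 2 and 3. *Hey1* differed from that order only in that wildtype replicate 2 stood above mutant replicate 3. With the Myocardial list's mean as a covariate, the log2 fold changes were −0.0022 for *Heyl* and −0.12 for *Hey1*. That fit, which called 0.0142% of all genes, cannot well separate the label from the Myocardial markers. A covariate fit with the Mesenchymal list was not made, and the part of these cells in the result was not tested.

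**Figure D2:**
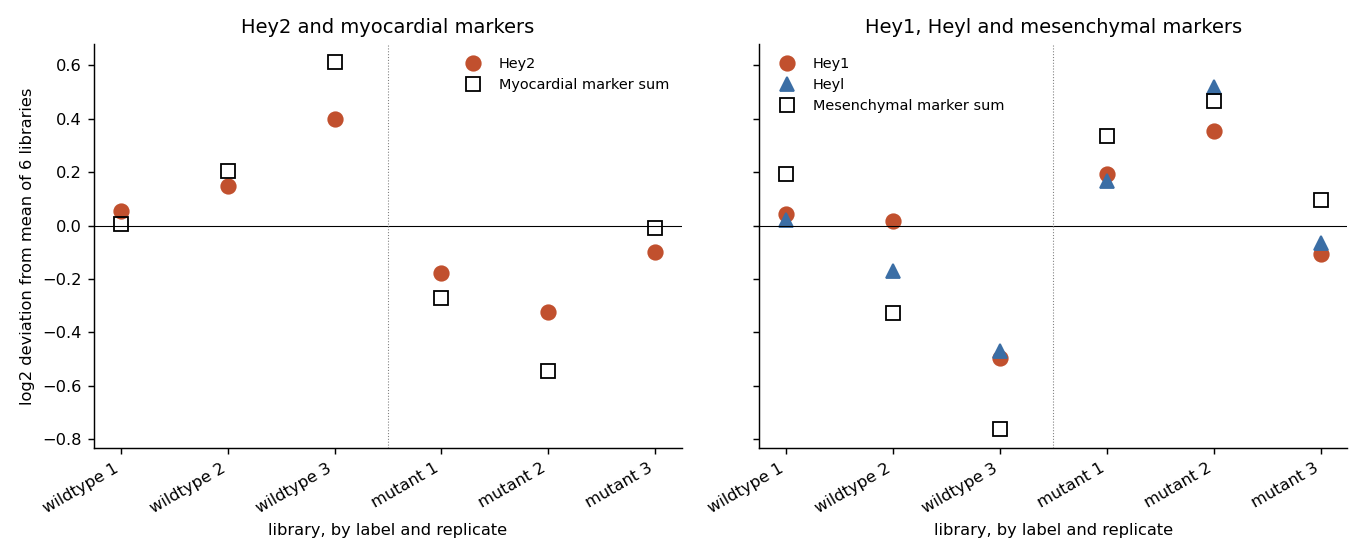
Log2 deviation of each library from the gene's mean over the 6 libraries, for *Hey2* beside the Myocardial marker sum (left) and for *Hey1* and *Heyl* beside the Mesenchymal marker sum (right). *Hey2* and the Myocardial sum are both highest in wildtype replicate 3 and lowest in mutant replicate 2, and *Hey1*, *Heyl* and the Mesenchymal sum are the reverse.

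*Hes1* (ENSMUSG00000022528, chromosome 16 from 30064384 to 30067796, plus strand), the most widely used Notch target, was the steadiest of the 10. It had 20.7, 20.6 and 21.0 CPM under the wildtype label and 21.4, 20.3 and 22.1 CPM under the mutant label, for replicates 1 to 3. The groups overlapped, and the means of 20.8 ± 0.174 and 21.2 ± 0.941 CPM (SD, n = 3 each) gave a log2 fold change of 0.034 (95% interval −0.18 to 0.25). Its adjusted p was 0.901 by edgeR's quasi-likelihood test (Benjamini-Hochberg adjusted), and from 0.535 to 0.990 over the other settings.

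The 4 repressors were also set against each other within a library. *Hey2* made up 48.8 ± 5.51% of their summed CPM per kb under the wildtype label and 38.4 ± 3.91% under the mutant label (SD, n = 3 each), with no overlap. The shares of *Hes1* (24.0% and 25.6%), *Hey1* (15.4% and 19.5%) and *Heyl* (11.9% and 16.5%) overlapped between the labels.

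*Maml1* (ENSMUSG00000050567, chromosome 11 from 50255634 to 50292311, minus strand), the coactivator of the complex, had 39.2, 35.6 and 35.5 CPM in wildtype-label replicates 1, 2 and 3 and 44.1, 45.3 and 39.3 CPM in mutant-label replicates 1, 2 and 3. Wildtype replicate 1 and mutant replicate 3 lay next to each other at the edge of the groups, which did not overlap. The log2 fold change was 0.22 (SE 0.098, 95% interval 0.0049 to 0.44), with an adjusted p of 0.304 by edgeR's quasi-likelihood test (Benjamini-Hochberg adjusted) and 0 of 18 other settings calling it. Over those settings it ranged from 0.083, with the GC and length correction, to 0.33, with libraries scaled by their size alone.

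*Rbpj* (ENSMUSG00000039191, chromosome 5 from 53466152 to 53657362, plus strand), the DNA-binding partner, had 58.4, 50.9 and 45.3 CPM under the wildtype label and 55.7, 54.0 and 52.9 CPM under the mutant label, for replicates 1 to 3. All 3 mutant-label values lay within the range of the wildtype-label values. Its log2 fold change was 0.073 (SE 0.11, 95% interval −0.16 to 0.31), and it was −0.012 without wildtype replicate 3. The pseudogene *Rbpj-ps3*, with 6422 counts over the 6 libraries, shares 89.0% of its 50-base stretches with *Rbpj* and 9.69% of those of *Rbpj*. Reads could thus be divided between them, and *Rbpj* itself had 1469 to 2596 counts per library. The *Rbpj* values are therefore uncertain, and how far they are affected was not tested. *Rbpj* lies 29.082 Mb from *Nos3* on the same chromosome.

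*Nrarp* (ENSMUSG00000078202, chromosome 2 from 25180758 to 25183339, plus strand) encodes an ankyrin repeat protein that is induced by Notch and limits the nuclear complex. It was the lowest of the 10 per length, with 3.01, 4.46 and 3.76 CPM under the wildtype label and 3.47, 4.03 and 3.02 CPM under the mutant label, for replicates 1 to 3, or 114 to 185 counts per library. The groups overlapped, and the log2 fold change of −0.093 (SE 0.21, 95% interval −0.55 to 0.37) left room for a change in either direction. It was 0.017 when libraries were scaled by their size alone, which also moved the median of all genes from 0.011 to 0.11, and it was 0.054 without wildtype replicate 2. An antisense gene, *Gm38287*, covers 79.4% of the exon bases of *Nrarp* and has no value here, and *Nrarp* lies 1.275 Mb from *Notch1*.

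The 3 Fringe genes encode glycosyltransferases that add N-acetylglucosamine to fucose on the extracellular repeats of Notch receptors. All 3 had a higher mean under the mutant label, and none was called by edgeR.

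*Rfng* (ENSMUSG00000025158, chromosome 11 from 120780746 to 120784207, minus strand), Radical fringe, had 15.4, 16.5 and 16.9 CPM in wildtype-label replicates 1, 2 and 3 and 21.2, 23.6 and 19.3 CPM in mutant-label replicates 1, 2 and 3. All mutant-label libraries lay above all wildtype-label libraries. The means of 16.3 ± 0.773 and 21.3 ± 2.17 CPM (SD, n = 3 each) gave a log2 fold change of 0.39 (SE 0.11, 95% interval 0.14 to 0.64). The adjusted p was 0.197 by edgeR's quasi-likelihood test (Benjamini-Hochberg adjusted) and 0.0754 by DESeq2's Wald test, with a range from 0.0404 to 0.845 over 18 settings. Only the fit with the Endothelial mean as a covariate called it, and 8.73% of all genes were called in that fit.

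*Mfng* (ENSMUSG00000018169, chromosome 15 from 78755882 to 78773475, minus strand), Manic fringe, had 12.5, 16.2 and 13.2 CPM under the wildtype label and 18.7, 18.2 and 16.2 CPM under the mutant label, for replicates 1 to 3. Mutant replicate 3 (16.15 CPM) lay just below wildtype replicate 2 (16.21 CPM), the only overlap. Its log2 fold change was 0.34 (SE 0.13, 95% interval 0.052 to 0.63), with an adjusted p of 0.260 by edgeR's quasi-likelihood test (Benjamini-Hochberg adjusted).

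*Lfng* (ENSMUSG00000029570, chromosome 5 from 140607320 to 140615545, plus strand), Lunatic fringe, had 4.03, 6.09 and 5.30 CPM under the wildtype label and 5.80, 6.67 and 5.20 CPM under the mutant label, for replicates 1 to 3. The groups overlapped, with a log2 fold change of 0.20 (SE 0.19, 95% interval −0.22 to 0.62) that was 0.046 without wildtype replicate 1. All 3 Fringe genes were lowest in wildtype replicate 1, in which the summed Endothelial markers were also lowest, at 1213 CPM beside 1353 to 1608 CPM in the other libraries. The Epicardial, Blood and Macrophage sums were lowest there as well. As log2 ratios to the Endothelial sum, *Rfng* was −6.47 ± 0.15 under the wildtype label and −6.05 ± 0.22 under the mutant label, and *Mfng* −6.70 ± 0.20 and −6.32 ± 0.18 (SD, n = 3 each), and neither overlapped. The ratio of *Lfng* overlapped between the labels.

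The Fringe genes were also set against each other within a library. *Rfng* made up 48.7 ± 3.22% and 50.0 ± 1.11% of the summed CPM per kb under the wildtype and mutant labels (SD, n = 3 each), *Mfng* 36.3 ± 2.21% and 36.4 ± 1.67%, and *Lfng* 15.1 ± 1.70% and 13.7 ± 0.591%. The groups overlapped for each of the 3. The coding sequences were 64.0% to 69.5% identical between pairs, with no 50-base stretch in common.

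**Figure D3:**
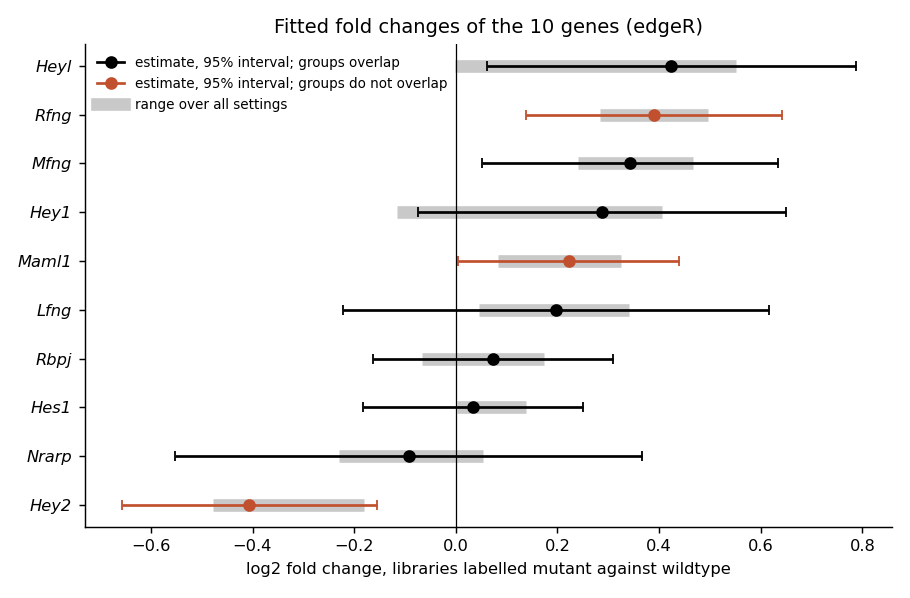
Fitted log2 fold change of the 10 genes (points) with 95% intervals (lines), and the range over all settings (grey bars), ordered by size. The intervals of *Hey2*, *Rfng*, *Mfng*, *Heyl* and *Maml1* leave out 0, the grey bars of *Heyl*, *Hey1*, *Rbpj* and *Nrarp* cross 0, and red marks the 3 genes whose groups do not overlap.

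For 9 of the 10 genes, the gene with the most similar profile over the 6 libraries is given, from among genes of at least 5 CPM, by the root mean square difference of log2 deviations. *Hey2* was nearest to *Hadha* (0.0330), *Heyl* to *Ssh3* (0.0418) and *Hey1* to *Gk5* (0.0331). *Rbpj* was nearest to *Dcun1d3* (0.0216), *Maml1* to *Man1b1* (0.0175), *Nrarp* to *Nipal3* (0.0370), *Lfng* to *9930012K11Rik* (0.0480), *Mfng* to *Ece2* (0.0373) and *Rfng* to *Mks1* (0.0299). Among the 10 genes themselves the nearest pairs were *Hey1* and *Heyl* (0.104), *Rbpj* and *Maml1* (0.109), and *Mfng* and *Rfng* (0.116).

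A list of 82 other Notch pathway genes was read beside them, of which 79 were tested, 55 with a positive and 24 with a negative log2 fold change. Only *Notch1* was called by edgeR's quasi-likelihood test (Benjamini-Hochberg adjusted), where 0.0178% of all genes were called higher. Leaving out wildtype replicate 1 raised the count to 13, in a fit that called 9.45% of all genes, and leaving out any other library lowered it to 0. At an unadjusted p under 0.05, 22 were higher and 2 lower, where 8.23% and 7.83% of all genes tested were, and DESeq2's Wald test called 8, all higher, where it called 1.46% of all genes higher. The groups did not overlap for 15 higher and 4 lower genes, where 10.7% and 8.94% of all genes did not overlap. The median log2 fold change of the list was 0.089.

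All 4 receptors were higher, with 3 at an unadjusted p under 0.05 and a median log2 fold change of 0.59. Only the groups of *Notch1* did not overlap. Over all settings the log2 fold change ranged from 0.012 to 0.88 for *Notch2*, 0.12 to 0.84 for *Notch3* and −0.11 to 0.25 for *Notch4*. Of 7 ligands, *Jag2* had 18.0 ± 1.35 CPM under the wildtype label and 27.3 ± 1.92 CPM under the mutant label (SD, n = 3 each). Its log2 fold change was 0.60, with an adjusted p of 0.128 by edgeR's quasi-likelihood test and 0.00107 by DESeq2's Wald test, and its groups did not overlap. In receptor processing, *Furin*, a protease that matures the receptor, was at 0.21 and *Aph1c*, a γ-secretase subunit, at −0.35, both without overlap.

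Among 14 corepressors, those with the largest fold changes were the TLE genes *Tle2* and *Tle3*, of the Groucho/TLE family. *Tle2* had 24.5, 14.9 and 11.5 CPM in wildtype-label replicates 1, 2 and 3 and 39.5, 42.4 and 25.6 CPM in mutant-label replicates 1, 2 and 3. Its values differ widely inside each group, and the groups are only just apart. The log2 fold change was 1.08 (SE 0.26), with an adjusted p of 0.181 by edgeR's quasi-likelihood test (Benjamini-Hochberg adjusted) and 0.00297 by DESeq2's Wald test. *Tle3* had 26.4 ± 1.49 and 35.6 ± 3.42 CPM (SD, n = 3 each), a log2 fold change of 0.43 with the same adjusted p of 0.181 by edgeR's quasi-likelihood test and 0.0288 by DESeq2's Wald test.

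Of 7 other coactivators, 5 had a positive log2 fold change and 0 were called by edgeR or DESeq2. Those with the largest log2 fold changes among the genes without overlap were *Kat2b*, an acetyltransferase, at −0.15 and *Snw1*, a coregulator that meets Rbpj, at −0.14. At an unadjusted p under 0.05 there were 0 of the 7. In the trafficking and ubiquitin group the Deltex genes *Dtx3* (52.8 ± 4.82 and 83.6 ± 12.7 CPM; log2 fold change 0.66) and *Dtx1* (1.16 ± 0.291 and 1.88 ± 0.306 CPM; 0.69) were without overlap. The adjusted p of *Dtx3* was 0.131 by edgeR's quasi-likelihood test and 0.000684 by DESeq2's Wald test. *Bhlhe40*, a repressor related to the Hes genes, was at 0.27, and the T-box repressor *Tbx2* at 0.31, both without overlap. Neither was called by edgeR or DESeq2, and *Bhlhe40* was called without wildtype replicate 1 (adjusted p = 0.0497, edgeR's quasi-likelihood test).

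**Figure D4:**
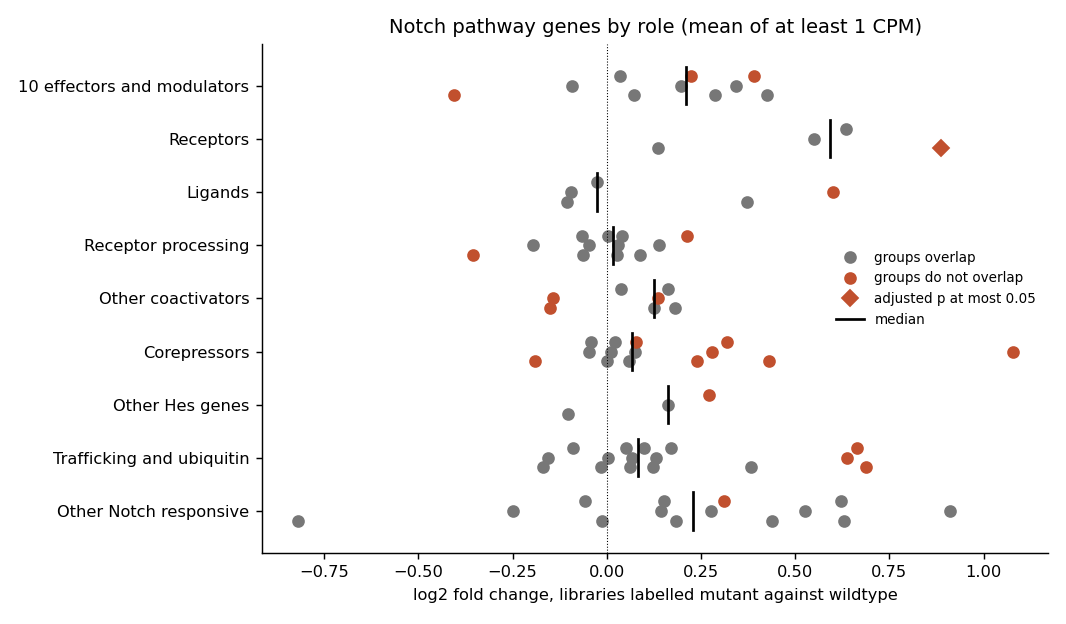
Log2 fold changes of the 10 genes (top line) and of the other pathway genes averaging at least 1 CPM, by role, with a black bar at each median. *Notch1*, the red diamond among the receptors, is the only gene past the adjusted threshold, and the medians range from −0.027 for the ligands to 0.59 for the receptors.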

How the data were processed

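Total RNA of 6 OFT libraries was sequenced, and the authors trimmed the paired-end reads, mapped them to mm10 by TopHat, and used GenomicAlignments to count reads on exons. The deposited table gives whole-number counts for each gene, not normalized. Use of the strand and the annotation release are not given in the sources used here, so antisense and overlapping genes are uncertain. Sample titles and descriptions exchange the library numbers of wildtype replicates 2 and 3, so those numbers are names only.

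Counts were tested in R 4.3.3 with edgeR 4.0.16 (quasi-likelihood test, TMM, Benjamini-Hochberg over 28157 genes with more than 5 reads, threshold for a call 0.05 on adjusted p), and with DESeq2 1.42.0 and limma 3.58.1 as alternatives. The 10 genes, the pathway list, the marker lists and the named genes were chosen with earlier results of these data known. Named are the 10 genes, the targeted genes, the called pathway genes, up to 2 pathway genes per role with the largest log2 fold change among those of at least 1 CPM without overlap, the nearest profile of each of the 10 (that of *Hes1*, and the coding end of *Hey1*, are not reported here), and markers where needed. Single values were also compared by exact permutation, on the scale of log2(CPM + 0.5). Positions, exon lengths and transcripts came from GENCODE M21 of mm10, and promoters from RefSeq. P-values measure the spread between these pools. The code was tested on simulated counts.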

Additional observations from a re-analysis of the deposited data

How the results depend on the processing

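Of 180 values of the 10 genes under the 18 other settings, 165 kept their direction and side of the threshold, 8 passed the threshold and 7 changed sign. The number of the 10 called was 1 with DESeq2, 2 with a replicate block on the titles, 1 with that block and a GC and length correction, 3 with the Endothelial mean as a covariate, and 0 to 1 leaving out each library. The number of pathway genes called was 8 with DESeq2, 14 with the replicate block on titles, 2 with the block on descriptions, 0 with the GC and length correction, 14 with it and the block, 0 with the Myocardial covariate, 15 with the Endothelial covariate, 0 at an adjusted p of at most 0.01, and 0 to 13 leaving out each library. Genes without overlap numbered 5 with library size only and 3 to 6 leaving out each library, and 3 of the 10 kept their rank of level without division by length. The median of the 10 was 0.32 with library size only, 0.095 with the GC and length correction, 0.098 with it and the block, 0.044 with the Myocardial covariate, and 0.14 to 0.28 leaving out each library. The pathway median was 0.19, 0.019 and 0.018 under the first 3 of these. Signs changed for *Hey1* (−0.12), *Heyl* (−0.0022) and *Rbpj* (−0.066) with the Myocardial covariate, for *Rbpj* (−0.012) without wildtype replicate 3, and for *Nrarp* with library size only (0.017), without wildtype replicate 2 (0.054) and without mutant replicate 3 (0.0028). Leaving out each library gave −0.012 to 0.17 for *Rbpj* and −0.23 to 0.054 for *Nrarp*. The causes were not tested. Same-numbered libraries had correlated deviations of 0.096, 0.159 and 0.420, and wildtype replicate 1 correlated best with mutant replicate 2 (0.277), so the numbers were not taken to pair samples. The block on titles called 1577 genes in all, that on descriptions 83, and the block with the GC and length correction 2255, or 5.6%, 0.295% and 8.01% of all genes tested, beside 6 without a block. The Endothelial covariate called 8.73% of all genes, the Myocardial covariate 0.0142%, DESeq2 2.66%, and the fit without wildtype replicate 1 9.45%. Of the 10 genes, *Nrarp* and *Lfng* had the fewest counts, and the part of depth in their spread was not tested.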

Other observations

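Of the 90 pairs of 1 of the 10 genes and 1 of the marker lists, 4 had all 6 libraries in the same order from high to low. Beside *Hey2* with the Myocardial sum and *Heyl* with the Mesenchymal sum, these were *Maml1* with the Neural crest and neuronal sum (15.0 to 28.9 CPM under the wildtype label and 31.0 to 39.4 CPM under the mutant label) and *Nrarp* with the Epicardial sum (235 to 390 CPM and 248 to 320 CPM). The 9 Blood markers were all lower under the mutant label, with a median log2 fold change of −0.56, and their sum was lowest in wildtype replicate 1.

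*Hes5*, a Notch target of neural tissue, had 5, 5 and 0 counts in wildtype-label replicates 1, 2 and 3 and 0 counts in each of the mutant-label replicates, which is too few to compare.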
